A study of Mus musculus with 15 samples.

Results

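The genes of sterol and fatty acid synthesis that answer to the sterol regulatory element-binding proteins (SREBPs) were followed across mouse alveolar macrophages, phagocytes that live in the airspaces of the lung. The set held 32 genes picked by symbol from a textbook outline of the pathway, out of 40510 genes in the count table, with 1 entry each. It was split into a sterol arm of 18 enzymes, 6 regulators and sterol transport genes, and a fatty acid arm of 8 enzymes. Of these, 31 had enough counts to be tested, and Fads2, a fatty acid desaturase, did not, with 0 to 0.550 CPM (counts scaled to a common library total) in every library.

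RNA was sequenced in bulk from bronchoalveolar lavage cells of naive mice that were wild-type (C57BL/6) or carried a Cybb knockout on C57BL/6 (CGD/CYBB KO), which models chronic granulomatous disease. The gene's product is the core of the NADPH oxidase with which phagocytes make superoxide. The sort took CD45+ Ly6G- SiglecF+ CD11c+ events and split them by CD11b, giving 5 groups of 3 libraries. These were CD11b-low cells from 4-week-old knockout mice, from 4-week-old wild-type mice, from 12-week-old knockout mice and from 12-week-old wild-type mice, and CD11b-high cells from 12-week-old knockout mice. No wild-type CD11b-high group was among the samples, and the deleted part of Cybb is not given in the labels. Each library pooled 2 to 3 mice of a group and about 50000 cells, so the spread between libraries is a spread between pools. In bulk libraries a lower level from fewer cells of a type and one from less RNA per cell cannot be told apart.

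SREBPs are made as inactive precursors in the membrane of the endoplasmic reticulum. When membrane sterol is low, SCAP escorts the precursor to the Golgi, where proteases release the part that enters the nucleus and binds sterol regulatory elements, usually beside a CCAAT box bound by NF-Y. When sterol is ample, INSIG proteins hold SCAP back and the pathway falls silent. SREBP-2 (Srebf2) drives mainly cholesterol synthesis and SREBP-1 (Srebf1) mainly fatty acid synthesis, and the latter is also switched on by the oxysterol receptor LXR. Alveolar macrophages clear lipid-rich surfactant, so they handle much cholesterol and fatty acid from outside the cell.

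The 15 libraries held 22856331 to 36458893 counts. Cybb ranged between 129 and 221 CPM across the 9 knockout libraries and between 898 and 2318 CPM across the 6 wild-type ones, with no overlap. All 12 alveolar macrophage markers were detected in every group, with a summed level of 35190 to 64249 CPM. Most of that sum was Chil3, at 24091 to 58148 CPM, so it says little of the other markers. Between CD11b-high and CD11b-low knockout cells, 9 of the 12 had a negative and 3 a positive log2 difference, none of them passing the test described below. Itgam, which encodes CD11b, stood at 25.5 to 82.5 CPM in CD11b-high against 2.81 to 5.28 CPM in 12-week CD11b-low knockout libraries. Wild-type 12-week replicate 1 stood apart from its group. Its mean correlation with the other 2 libraries of the group was 0.936 (log2 CPM over the genes tested), against 0.956 to 0.985 for every other library except CD11b-high replicate 1 at 0.954. It had the highest erythroid (1356 against 494 and 706 CPM), lung epithelium (130 against 64.3 and 104 CPM) and cell cycle (560 against 342 and 390 CPM) marker sums of its group, and the lowest alveolar macrophage sum of all libraries. The counts of members, the medians of the sterol and fatty acid arms and some of the differences that moved without it are given both ways below.

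The promoters of 6 members are shown because their genes lie on both sides of the pattern described below: 5 that were higher in CD11b-high knockout cells and Ebp, which was not. Only Hmgcs1 met the rule for printing (an exact sterol regulatory element and a change in at least 1 comparison), and the other 5 were added after their values were seen. Each line gives the 250 bases before the transcription start from RefSeq (GRCm38.p6), 5′ to 3′ on the strand of the gene. Capitals mark exact matches, on either strand, to TCACNCCAC (a sterol regulatory element consensus) and to CCAAT (read as ATTGG on the other strand); the motifs did not overlap.
Hmgcs1 (chr13:119690101-119690350, plus strand): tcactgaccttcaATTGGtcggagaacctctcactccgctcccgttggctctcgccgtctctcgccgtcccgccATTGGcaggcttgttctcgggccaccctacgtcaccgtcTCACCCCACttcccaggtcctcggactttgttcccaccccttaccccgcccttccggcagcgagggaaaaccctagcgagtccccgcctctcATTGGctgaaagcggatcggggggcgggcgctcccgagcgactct
Insig1 (chr5:28071162-28071411, plus strand): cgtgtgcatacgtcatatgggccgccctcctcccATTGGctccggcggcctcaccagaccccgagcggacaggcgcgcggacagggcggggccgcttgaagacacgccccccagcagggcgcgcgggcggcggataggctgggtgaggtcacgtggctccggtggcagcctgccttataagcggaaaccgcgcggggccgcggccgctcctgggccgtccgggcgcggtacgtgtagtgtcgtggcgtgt
Cyp51 (chr5:4104698-4104947, minus strand): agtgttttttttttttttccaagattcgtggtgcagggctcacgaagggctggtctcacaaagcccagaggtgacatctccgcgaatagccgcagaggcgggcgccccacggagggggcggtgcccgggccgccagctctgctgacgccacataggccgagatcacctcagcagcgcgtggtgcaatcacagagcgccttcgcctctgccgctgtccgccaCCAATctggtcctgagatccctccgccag
Lss (chr10:76531355-76531604, plus strand): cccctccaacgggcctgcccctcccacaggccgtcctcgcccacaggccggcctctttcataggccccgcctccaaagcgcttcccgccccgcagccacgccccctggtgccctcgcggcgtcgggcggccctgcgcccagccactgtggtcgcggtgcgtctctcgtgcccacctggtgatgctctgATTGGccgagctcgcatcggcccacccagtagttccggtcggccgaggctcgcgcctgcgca
Sc5d (chr9:42264301-42264550, minus strand): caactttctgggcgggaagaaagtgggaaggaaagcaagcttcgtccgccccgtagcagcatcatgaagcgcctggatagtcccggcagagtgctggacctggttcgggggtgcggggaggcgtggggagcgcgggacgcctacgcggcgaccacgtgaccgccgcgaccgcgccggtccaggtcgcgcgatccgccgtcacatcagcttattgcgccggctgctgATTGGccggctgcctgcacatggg
Ebp (chrX:8193513-8193762, minus strand): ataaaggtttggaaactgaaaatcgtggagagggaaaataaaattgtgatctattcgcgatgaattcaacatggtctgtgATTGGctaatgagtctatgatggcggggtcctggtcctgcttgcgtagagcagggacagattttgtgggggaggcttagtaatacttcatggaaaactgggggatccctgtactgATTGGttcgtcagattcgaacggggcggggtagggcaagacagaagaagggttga

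Of the 32 members, 25 had an entry in the RefSeq promoter table, with 33 promoters (250 bases before to 50 after the start). The TCACNCCAC motif was found in 1 of the 25 members, Hmgcs1, where it begins 137 bases before the start (1 of 33 promoters), and in 1.24% of all 32851 promoters. With at most 1 mismatch, a search added after the data were seen, it was found in 11 of 25 members (11 of their 33 promoters) and in 24.2% of all promoters. CCAAT was found in 20 of 25 members (21 of their 33 promoters) and in 37.4% of all promoters, and at least 2 copies in 11 of 25 members (11 of their 33 promoters) against 11.7% of all promoters. Ebp, with 2 copies, shared the box with the 5 genes that were higher. A match describes these letters only.

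**Figure D1:**
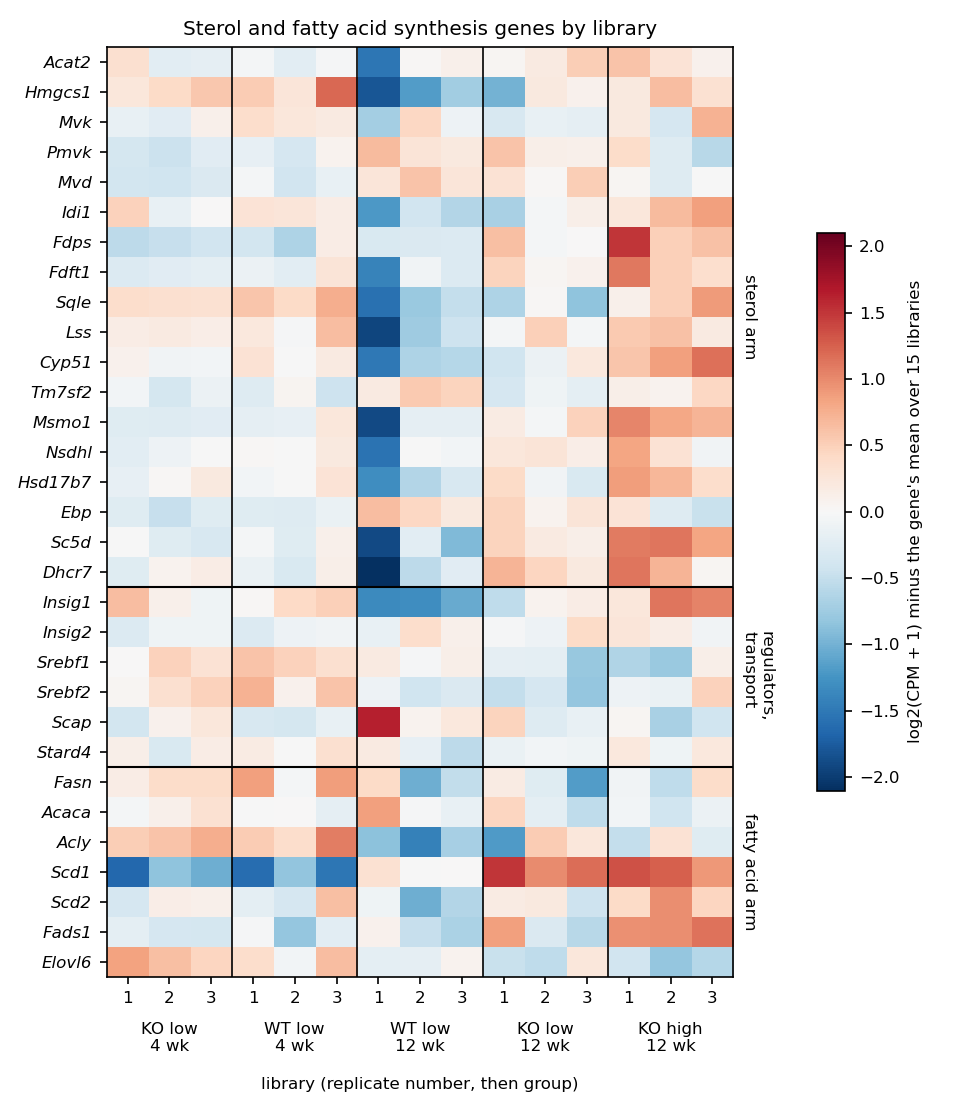
Each cell is a gene's log2(CPM + 1) in a library minus the gene's mean over the 15 libraries, for the 31 tested genes (vertical axis, by role) and the 15 libraries (horizontal axis, by group); KO is knockout, WT wild-type, low and high the CD11b gate. Wild-type 12-week replicate 1 is blue for most of the sterol arm, and the 3 CD11b-high libraries are red for Idi1, Sqle, Cyp51 and Sc5d.

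Levels of different genes were compared only per kilobase of exon (GENCODE M21 on GRCm38), as the mean over the 5 group means. In the sterol arm Ebp was highest at 101 CPM per kb, followed by Pmvk at 62.3, Mvd at 62.0 and Msmo1 at 35.2, and Idi1 was lowest at 0.583. The fatty acid arm was low apart from Acly, at 34.9 CPM per kb: Scd2 stood at 4.43, Scd1 at 1.95, Fasn at 0.745 and Acaca at 0.229. The regulators ranged from Insig1 at 20.8 and Insig2 at 9.75 to Srebf2 at 2.22, Srebf1 at 2.18 and Scap at 1.10 CPM per kb. The strand setting of the counting was not given, so reads from exons shared with another gene are uncertain; such bases made up 18.3% of the exons of Fdft1 (shared with the lysosomal protease Ctsb on the other strand), 26.7% of Fdps (shared with the model Gm43738 on the same strand), 13.2% of Scap and 12.1% each of Hmgcs1 and Tm7sf2. How reads that match both Scd1 and Scd2, a pair of similar neighbours, were counted was also not given.

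Whether loss of the oxidase alters the pathway at 12 weeks was addressed by comparing CD11b-low knockout with CD11b-low wild-type cells. Levels are CPM scaled by TMM, values for 3 libraries are in replicate order, and log2 differences with adjusted p-values are from two-sided edgeR quasi-likelihood tests over 13284 genes. Insig1, Sc5d and Scd1 were higher in knockout cells (3 of 31 members, against 2.60% of all genes tested called higher) and no member was lower (against 0.497%). At an unadjusted p under 0.05 there were 13 of 31 members, 11 of them higher, where 20.5% of all genes passed in either direction. The median log2 difference was 0.66 in the sterol arm, 0.56 in the fatty acid arm and -0.16 in the regulators, against -0.04 over all genes.

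Insig1, whose protein retains SCAP in the endoplasmic reticulum and whose gene is itself a classic SREBP target, stood at 39.1, 60.0 and 63.4 CPM in knockout and 21.8, 22.3 and 26.9 CPM in wild-type libraries. The groups did not overlap, and the log2 difference was 1.19 (SE 0.28, adjusted p = 0.026), or 2.29-fold. Sc5d, a desaturase late in the sterol pathway, stood at 78.1, 64.5 and 61.7 CPM against 14.5, 48.1 and 29.2 CPM, a log2 difference of 1.15 (SE 0.31, adjusted p = 0.0498). All knockout libraries lay above all wild-type ones, and wild-type replicate 1 was the lowest. Scd1, which puts the double bond into stearate and palmitate, stood at 21.6, 14.9 and 17.1 CPM against 8.97, 7.0 and 7.03 CPM, without overlap (log2 1.22, SE 0.33, adjusted p = 0.0498).

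Of the 18 sterol enzymes, 9 were higher in all knockout than in all wild-type libraries (against 9.82% of all genes) and 1, Tm7sf2, was lower (against 7.99%). Dhcr7, the last enzyme on a route to cholesterol, differed by 1.24 (SE 0.37, adjusted p = 0.0773), and by 0.85 without wild-type replicate 1. Lss, which cyclises squalene epoxide to lanosterol, differed by 1.12 (SE 0.32, adjusted p = 0.069), and Hmgcs1, which makes HMG-CoA, by 1.05 (SE 0.33, adjusted p = 0.0955). Mvk, Pmvk and Mvd, the mevalonate enzymes that follow it, differed by -0.19, -0.10 and -0.09 (adjusted p = 0.757, 0.846 and 0.824), and Ebp, a sterol isomerase, by -0.16 (adjusted p = 0.709). Tm7sf2, a sterol reductase, stood at 4.15, 5.19 and 4.70 CPM against 6.48, 8.59 and 8.12 CPM, with a log2 difference of -0.72 (SE 0.26, adjusted p = 0.138). Of the 6 regulators, 1, Srebf1, was lower in all knockout libraries (against 7.99%), with a log2 difference of -0.51 (SE 0.28, adjusted p = 0.314). Srebf2 differed by -0.30 (SE 0.26, adjusted p = 0.521) and Scap by -0.85 (SE 0.39, adjusted p = 0.233). Insig2 and Stard4 differed by -0.01 and 0.06 (adjusted p = 0.984 and 0.915).

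The calls were marginal. Without wild-type replicate 1 no member passed (edgeR quasi-likelihood, against 1.59% of genes called higher and 0.277% lower; 12 of 31 members at an unadjusted p under 0.05, against 16.9% of all genes), and the sterol arm median fell from 0.66 to 0.41 while the fatty acid arm median rose from 0.56 to 0.87. Insig1 then differed by 1.14 (SE 0.30, adjusted p = 0.0688), Sc5d by 0.82 (SE 0.22, adjusted p = 0.0728) and Scd1 by 1.35 (SE 0.36, adjusted p = 0.0676), with the same direction. Fasn, Acaca and Pmvk changed sign, from -0.08, -0.41 and -0.10 to 0.52, 0.07 and 0.06. Scap moved from -0.85 to -0.11. Scd1 was lost in each of the 6 fits that left out 1 library, Sc5d in 5 and Insig1 in 4. No member passed without knockout replicate 2 or without knockout replicate 3, and only Sc5d passed without wild-type replicate 2. Without knockout replicate 1 the fatty acid arm median was 0.01. Which arm had the larger median therefore depended on single libraries.

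Marker sums of other cells moved with this comparison. The 10 T and NK cell genes summed to 38.7 to 113 CPM in knockout libraries and 2.86 to 5.97 CPM in the wild-type ones (Ncr1 at 0 in the latter), the 8 monocyte-derived macrophage genes to 21.2 to 52.7 against 9.57 to 14.7 CPM, and the 8 neutrophil genes to 36.5 to 128 against 23.4 to 54.7 CPM (Ly6g and Elane at 0 in both, Camp in knockout and Mpo in wild-type libraries). Sums went the other way for the 6 erythroid genes, 67.9 to 123 against 494 to 1356 CPM, and the 10 lung epithelium genes, 24.4 to 46.0 against 64.3 to 130 CPM (Lamp3 at 0 in knockout and Nkx2-1 at 0 in wild-type libraries). Mitochondrial transcripts took 0.505 to 0.801% of counts in knockout and 1.13 to 1.29% in wild-type libraries. Their part in the differences was not tested.

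**Figure D2:**
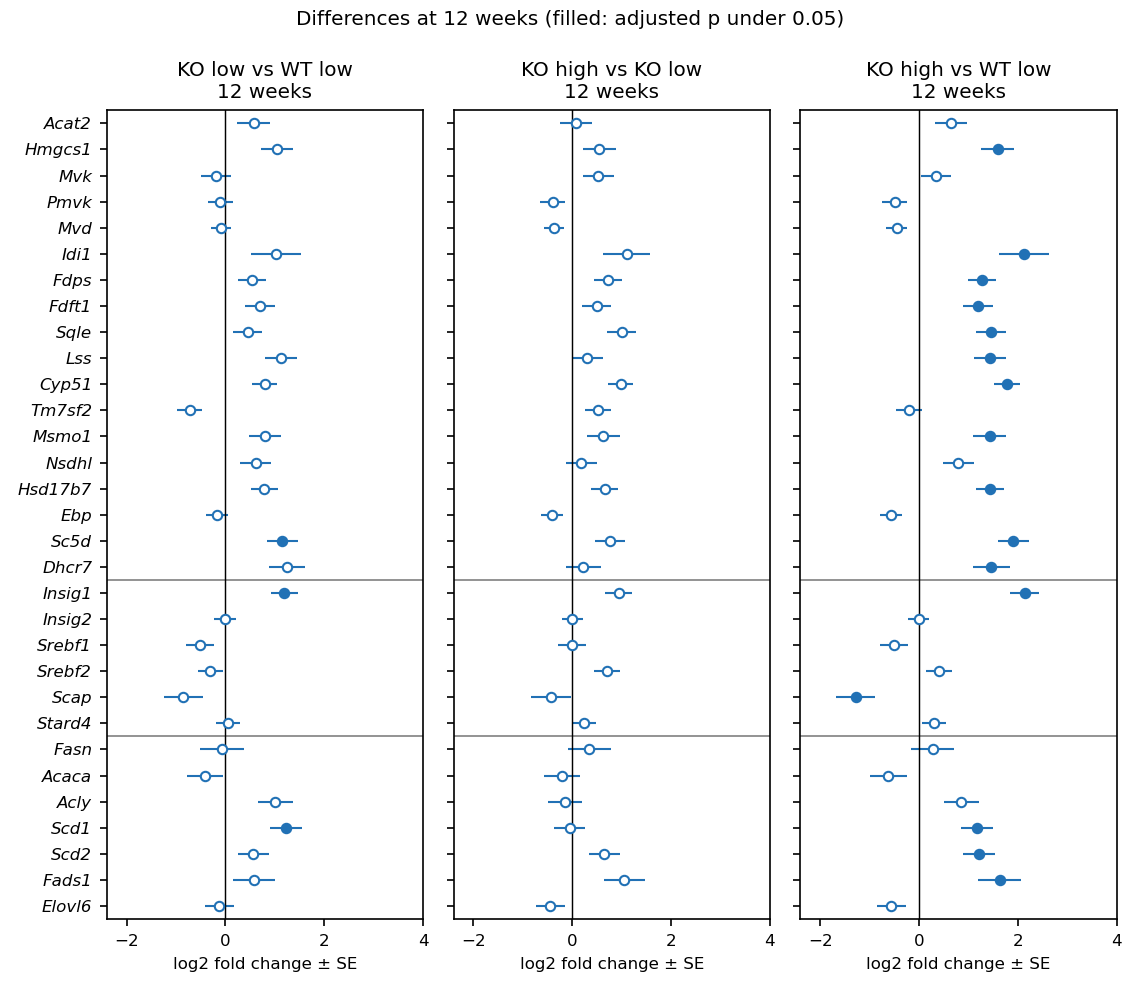
Log2 fold changes (horizontal axis, point ± SE) of the 31 tested genes (vertical axis, by role) in the 3 comparisons at 12 weeks; filled points have an adjusted p under 0.05. Filled points number 3 in the left panel, 0 in the middle and 16 in the right, where 11 of the 18 sterol enzymes are filled and lie to the right of 0.

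The most members passed between CD11b-high knockout cells and 12-week wild-type CD11b-low cells, a comparison in which genotype and CD11b gate cannot be told apart. Of 31 members, 15 were higher (against 9.23% of all genes tested) and 1 was lower (against 5.60%). The higher genes were 11 of the 18 sterol enzymes, Insig1, and 3 of 7 fatty acid enzymes. The median log2 difference was 1.35 in the sterol arm, 0.86 in the fatty acid arm and 0.15 in the regulators, against -0.01 over all genes. The same 3 wild-type libraries stand in this and in the previous comparison, so the comparisons are not independent.

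At the top of the sterol arm, Hmgcs1 stood at 126, 173 and 137 CPM in CD11b-high and 30.9, 48.0 and 65.4 CPM in wild-type libraries, without overlap, a log2 difference of 1.60 (SE 0.33, adjusted p = 0.00404). Idi1, which isomerises the isoprenoid unit, was scarce, at 2.36, 3.56 and 4.18 against 0.241, 1.18 and 0.867 CPM. Its log2 difference was 2.13 (SE 0.50, adjusted p = 0.00901), and the groups did not overlap. Fdps, which joins the units to farnesyl diphosphate, stood at 228, 113 and 122 against 63.4, 64.0 and 65.2 CPM (log2 1.27, SE 0.29, adjusted p = 0.00661). CD11b-high replicate 1 was the highest library for Fdps and also for Fdft1.

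Fdft1 is squalene synthase, the step that commits carbon to sterols. Its levels were 155, 102 and 91.6 CPM in CD11b-high and 26.4, 67.9 and 57.9 CPM in wild-type libraries (log2 1.20, SE 0.30, adjusted p = 0.0132), and without CD11b-high replicate 1 the difference was 0.93 (adjusted p = 0.0547). Sqle, the squalene epoxidase and a rate-limiting step, stood at 48.6, 64.2 and 84.9 against 14.6, 25.9 and 31.5 CPM, a log2 difference of 1.46 (SE 0.30, adjusted p = 0.00342). For both genes every CD11b-high library lay above every wild-type library. Lss followed at 46.3, 48.1 and 35.7 against 7.44, 18.1 and 22.9 CPM (log2 1.43, SE 0.32, adjusted p = 0.00703), also without overlap.

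Cyp51, which removes the 14-alpha methyl group of lanosterol, stood at 125, 152 and 187 CPM in CD11b-high and 28.5, 52.4 and 54.5 CPM in wild-type libraries. That was 3.42-fold higher, with a log2 difference of 1.77 (SE 0.26, adjusted p = 2.21e-04). Msmo1 and Hsd17b7 act next, in the removal of the 4-methyl groups. Msmo1 stood at 405, 348 and 324 against 52.4, 173 and 173 CPM (log2 1.43, SE 0.33, adjusted p = 0.00798). Hsd17b7 stood at 33.7, 29.6 and 23.5 against 6.68, 11.4 and 13.9 CPM (log2 1.44, SE 0.28, adjusted p = 0.0024). Nsdhl, the third enzyme of that complex, stood at 132, 91.8 and 70.1 against 24.7, 73.4 and 70.7 CPM, and its log2 difference of 0.80 (SE 0.32, adjusted p = 0.0994) missed the threshold.

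Among the last steps, Sc5d stood at 121, 123 and 101 CPM in CD11b-high against 14.5, 48.1 and 29.2 CPM in wild-type libraries, a log2 difference of 1.91 (SE 0.31, adjusted p = 5.78e-04). Dhcr7 stood at 295, 222 and 139.9 against 30.7, 92.5 and 115 CPM (log2 1.47, SE 0.37, adjusted p = 0.0134), with CD11b-high replicate 3 the lowest of its group. In all, 11 sterol enzymes were higher in all CD11b-high than in all wild-type libraries, against 15.6% of all genes, and 1, Mvd, was lower, against 10.8%. The 7 that did not pass were Acat2, Mvk, Pmvk, Mvd, Tm7sf2, Nsdhl and Ebp, with log2 differences from -0.56 for Ebp to 0.80 for Nsdhl. Acat2, the cytosolic thiolase that starts the pathway, differed by 0.65 (SE 0.33, adjusted p = 0.196), and Mvd, which decarboxylates mevalonate diphosphate, by -0.46 (SE 0.20, adjusted p = 0.142).

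In the fatty acid arm, Scd1 stood at 19.3, 18.2 and 14.2 CPM in CD11b-high against 8.97, 7.0 and 7.03 CPM in wild-type libraries (log2 1.17, SE 0.33, adjusted p = 0.0237). Scd2, another stearoyl-CoA desaturase, stood at 30.3, 45.8 and 31.6 against 21.4, 10.7 and 14.4 CPM (log2 1.21, SE 0.32, adjusted p = 0.0178). Fads1, the delta-5 desaturase of polyunsaturated fatty acids, stood at 8.03, 8.15 and 9.20 against 3.94, 2.32 and 1.92 CPM (log2 1.63, SE 0.43, adjusted p = 0.0177). By ranges, 4 of 7 fatty acid enzymes, these 3 desaturases and Acly, were higher in all CD11b-high than in all wild-type libraries, against 15.6% of all genes. Elovl6 was lower in all, 1 of 7 against 10.8%. The enzymes that build the chain did not pass: Acly, which makes cytosolic acetyl-CoA, differed by 0.86 (SE 0.35, adjusted p = 0.114), Fasn, the synthase, by 0.27 (SE 0.44, adjusted p = 0.727), Acaca, the carboxylase, by -0.62 (SE 0.37, adjusted p = 0.285), and Elovl6, the elongase, by -0.56 (SE 0.29, adjusted p = 0.211).

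Among the regulators, Insig1 and its binding partner Scap passed, in opposite directions. Insig1 had the largest log2 difference of all members, 67.5, 125 and 119 CPM in CD11b-high against 21.8, 22.3 and 26.9 CPM in wild-type libraries (log2 2.14, SE 0.29, adjusted p = 8.54e-05). Its paralogue Insig2 stood at 40.1, 37.5 and 31.6 against 30.0, 43.6 and 36.0 CPM, a log2 difference near 0 (SE 0.21, adjusted p = 0.992). Srebf2 stood at 14.1, 13.7 and 21.6 against 14.1, 11.1 and 12.2 CPM (log2 0.40, SE 0.26, adjusted p = 0.319), and the groups overlapped. Srebf1 stood at 7.25, 6.37 and 12.8 against 13.5, 11.5 and 12.8 CPM (log2 -0.51, SE 0.28, adjusted p = 0.246), likewise with overlap. Scap was the member that was lower, at 7.70, 4.31 and 5.33 against 25.4, 7.89 and 8.94 CPM (log2 -1.28, SE 0.40, adjusted p = 0.0397), a call that was lost without wild-type replicate 1 and also without CD11b-high replicate 2 or 3. Stard4, a sterol carrier, stood at 18.3, 14.5 and 18.3 against 17.7, 13.6 and 10.3 CPM (log2 0.30, SE 0.24, adjusted p = 0.442).

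Without wild-type replicate 1, 15 members were higher (against 8.47% of all genes) and none lower (against 5.60%), again 11 sterol enzymes, Insig1 and 3 fatty acid enzymes. The medians were then 1.06 in the sterol arm and 0.90 in the fatty acid arm. Insig1 differed by 2.07 (SE 0.32, adjusted p = 5.43e-04), Cyp51 by 1.52 (SE 0.22, adjusted p = 3.83e-04), Sc5d by 1.57 (SE 0.23, adjusted p = 4.09e-04) and Fads1 by 1.98 (SE 0.48, adjusted p = 0.0121), whereas Scap differed by -0.55 (SE 0.31, adjusted p = 0.253). Msmo1, Dhcr7, Lss and Fdft1 differed by 1.05, 1.07, 1.08 and 0.88, and Nsdhl by 0.43. Fasn moved from 0.27 to 0.87 and did not pass (adjusted p = 0.199). Of the 11 sterol enzymes, 10 passed in each of the 6 fits that left out 1 library (Fdft1 did not), as did Insig1. Each of the 3 fatty acid enzymes was lost in at least 2 of those fits: Fads1 without wild-type replicate 2 or 3, Scd2 without wild-type or CD11b-high replicate 2, and Scd1 in 4 of the 6. A fit on these 6 libraries alone called 7 members (Cyp51, Fads1, Hmgcs1, Hsd17b7, Insig1, Sc5d and Sqle). The share of all genes called in that fit is not given here. The summed neutrophil markers were 277 to 401 CPM in CD11b-high libraries (Ly6g at 0), the monocyte-derived macrophage markers 46.0 to 183 CPM and the 5 dendritic cell markers 20.6 to 124 CPM, against 23.4 to 54.7, 9.57 to 14.7 and 5.88 to 7.76 CPM in wild-type libraries. Itgam, at 25.5 to 82.5 against 0.834 to 2.09 CPM, is among the monocyte-derived macrophage markers, so part of that difference was set by the CD11b gate. In CD11b-high libraries most of the neutrophil sum was S100a8, at 230 to 348 CPM. Most of the dendritic cell sum there was Ccr7, at 14.5 to 116 CPM. All 3 neutrophil genes tested and all 5 dendritic cell genes had a positive log2 difference. The T and NK cell genes summed to 30.8 to 83.9 against 2.86 to 5.97 CPM, the erythroid genes to 49.5 to 151 against 494 to 1356 CPM and the lung epithelium genes to 38.8 to 48.7 against 64.3 to 130 CPM. Their part was not tested.

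**Figure D3:**
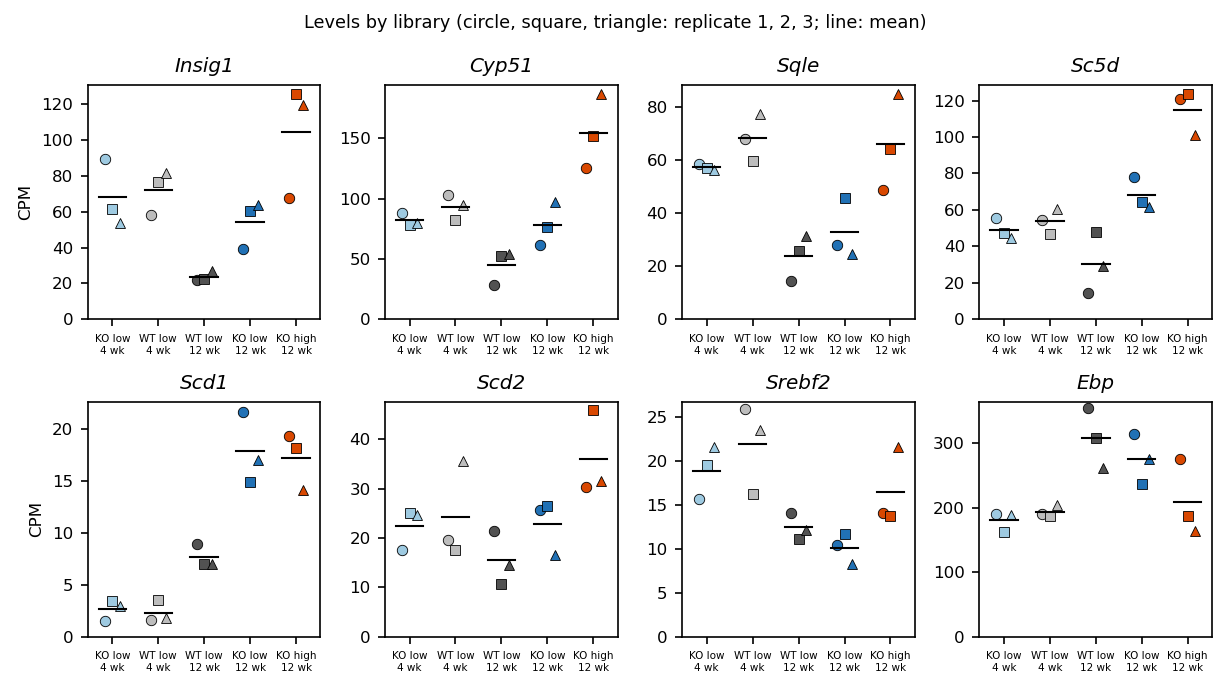
TMM-scaled CPM (vertical axis, from 0) of 8 members in each library of the 5 groups (horizontal axis); symbols mark the replicate number and lines the group mean of n = 3. The group means of Insig1, Cyp51 and Sc5d are lowest in 12-week wild-type and highest in CD11b-high cells, that of Ebp is highest in 12-week wild-type cells, and Scd1 is higher in every 12-week than in every 4-week library.

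The CD11b gate was compared within 12-week knockout cells. No member passed the threshold in the edgeR test over all 15 libraries, where 0.693% of all genes were called in either direction. In that test 9 of 31 members, all higher, had an unadjusted p under 0.05, against 10% of all genes. DESeq2 called 2 members, and its share of all genes called is not given here. The median log2 difference was 0.52 in the sterol arm, -0.05 in the fatty acid arm and 0.12 in the regulators, against 0.01 over all genes. Over the 6 fits that left out 1 library the sterol arm median ranged from 0.43 to 0.58 and the fatty acid arm median from -0.08 to 0.21. In each of them the sterol arm therefore had the larger median. Within single libraries the picture was mixed: the sterol arm minus the fatty acid arm, given below, was lower in CD11b-high cells for replicates 2 and 3.

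CD11b-high and CD11b-low libraries of the same number were also compared as pairs, on the assumption that the number marks the same pool of mice. The labels do not state this, and the data do not establish it. In a fit with the pair as a block, 2 members passed, Cyp51 and Insig1; the share of all genes called in that fit is not given here. Cyp51 was 2.02, 1.99 and 1.92 times as high in CD11b-high as in CD11b-low cells of pairs 1, 2 and 3, a log2 difference of 1.0 (SE 0.17, adjusted p = 0.0178). Insig1 was 1.73, 2.09 and 1.88 times as high, a log2 difference of 0.94 (SE 0.17, adjusted p = 0.0266). Their levels in CD11b-low knockout cells were 61.8, 76.3 and 97.1 CPM for Cyp51 and 39.1, 60.0 and 63.4 CPM for Insig1, below every CD11b-high library. Sc5d was 1.55, 1.91 and 1.64 times as high and missed the threshold (adjusted p = 0.0535).

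Of 18 sterol enzymes, 11 were higher in CD11b-high cells in all 3 pairs, where 20.4% of all genes were, and 3 were lower in all pairs (Pmvk, Mvd and Ebp), where 17.9% of all genes were. Sqle was 1.73, 1.40 and 3.45 times as high, with pair 3 far above the others, and Hmgcs1 was 2.30, 1.37 and 1.17 times as high. Ebp went the other way, at 0.875, 0.787 and 0.596 times. In the fatty acid arm 2 of 7 were higher in all pairs, Scd2 (1.18, 1.73 and 1.91 times) and Fads1 (1.09, 2.97 and 4.41 times), and none was lower in all. Scd1, which was higher in knockout than in wild-type cells, was 0.893, 1.22 and 0.830 times as high, with no common direction, and Fasn moved from 0.793 to 3.69 times across pairs. Srebf2 was higher in all pairs (1.35, 1.18 and 2.62 times) and Scap lower in all (0.717, 0.712 and 0.809 times).

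Without regard to pairs, 7 sterol enzymes, Insig1, Srebf2, Scd2 and Fads1 were higher in all CD11b-high than in all CD11b-low knockout libraries, 11 of 31 members against 7.90% of all genes, and none was lower, against 5.86%. The neutrophil markers summed to 36.5 to 128 CPM in CD11b-low knockout and 277 to 401 CPM in CD11b-high libraries, the monocyte-derived macrophage markers to 21.2 to 52.7 and 46.0 to 183 CPM, the 5 dendritic cell markers to 2.70 to 17.9 and 20.6 to 124 CPM, and the 10 cell cycle genes to 415 to 558 and 277 to 378 CPM. Their part in the differences was not tested. The monocyte-derived macrophage markers include Itgam, the gene of the CD11b gate, at 2.81 to 5.28 and 25.5 to 82.5 CPM. Part of the rise of that sum was therefore set by the sort. S100a8 stood at 35.2 to 125 CPM in CD11b-low and 230 to 348 CPM in CD11b-high libraries, most of the neutrophil sum in both. Ccr7, at 0.992 to 13.7 and 14.5 to 116 CPM, was most of the dendritic cell sum in CD11b-high libraries. All 3 neutrophil genes tested and 4 of 5 dendritic cell genes had a positive log2 difference.

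At 4 weeks knockout and wild-type CD11b-low cells were also compared. No member passed (edgeR quasi-likelihood; DESeq2 also called none), and none had an unadjusted p under 0.05, where 0.0979% of all genes passed the adjusted and 1.5% the unadjusted threshold. The median log2 difference was -0.18 in the sterol arm, -0.0046 in the fatty acid arm and -0.13 in the regulators, against -0.01 over all genes. Mvk, Sqle, Msmo1 and Nsdhl were lower in all knockout than in all wild-type libraries (4 of 31, against 4.72% of all genes), and no member was higher in all (against 3.91%). Sqle, for example, stood at 58.5, 56.9 and 56.3 CPM in knockout and 67.9, 59.7 and 77.3 CPM in wild-type libraries (log2 -0.25, SE 0.29, adjusted p = 1). Insig1 differed by -0.08 (SE 0.27, adjusted p = 1). At this age the summed erythroid genes ranged from 52.6 to 171 CPM in knockout mice, while wild-type libraries held 1812 to 8324 CPM, and their part was not tested.

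The change of the genotype difference from 4 to 12 weeks was tested as an interaction. No member passed in edgeR or in DESeq2, where 0.248% of all genes did in edgeR; 12 of 31 members, 11 of them with a positive sign, had an unadjusted p under 0.05, against 8.30% of all genes. The largest were Hmgcs1, 1.36 (SE 0.46, adjusted p = 0.36), Sc5d, 1.29 (SE 0.43, adjusted p = 0.34), and Insig1, 1.28 (SE 0.39, adjusted p = 0.283). The median was 0.82 in the sterol arm and 0.58 in the fatty acid arm. Without wild-type 12-week replicate 1 none passed either, where 0.153% of all genes were called higher. At an unadjusted p under 0.05 there were then 9 of 31 members, against 1069 of all 13738 genes tested in that fit. The medians were 0.61 in the sterol arm and 0.94 in the fatty acid arm. Without knockout 12-week replicate 1 the fatty acid arm median was -0.11. A genotype effect that differs with age was thus not shown for any member.

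Age was compared within each genotype. In wild-type CD11b-low cells 3 members were higher at 12 than at 4 weeks (Ebp, Scap and Scd1, 3 of 31 against 8.79% of all genes) and 9 were lower (against 8.39%): Hmgcs1, Idi1, Sqle, Lss, Cyp51, Hsd17b7, Insig1, Srebf2 and Acly. The median log2 change was -0.51 in the sterol arm, -0.50 in the fatty acid arm and -0.38 in the regulators, against -0.03 over all genes. In knockout CD11b-low cells Scd1 was higher (1 of 31, against 4.81%) and Srebf2 lower (1 of 31, against 2.08%), with medians of 0.30, -0.21 and -0.21. The labels give no date of preparation or sequencing, and TMM factors were 1.10 to 1.17 at 4 and 0.832 to 1.04 at 12 weeks, so age and any batch that followed it cannot be told apart. The 12-week libraries are those of the genotype comparison, so the comparisons are not independent.

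Hmgcs1 fell in wild-type cells from 159, 131 and 254 CPM at 4 weeks to 30.9, 48.0 and 65.4 CPM at 12 weeks (log2 -1.91, SE 0.34, adjusted p = 0.00368). In knockout cells it stood at 129, 146 and 162 CPM at 4 weeks and 54.7, 126 and 117 CPM at 12 weeks, and its change of -0.55 (SE 0.33, adjusted p = 0.312) missed the threshold. Sqle fell in wild-type cells from 67.9, 59.7 and 77.3 to 14.6, 25.9 and 31.5 CPM (log2 -1.51, SE 0.30, adjusted p = 0.00478) and stood at 58.5, 56.9 and 56.3 CPM at 4 and 28.1, 45.8 and 24.6 CPM at 12 weeks in knockout cells (log2 -0.80, SE 0.29, adjusted p = 0.0996). For both genes the ages did not overlap in either genotype. Idi1 fell from 2.48, 2.40 and 2.21 to 0.241, 1.18 and 0.867 CPM in wild-type cells (log2 -1.62, SE 0.50, adjusted p = 0.0335).

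Later enzymes fell in wild-type cells as well. Lss fell from 36.3, 30.4 and 49.5 to 7.44, 18.1 and 22.9 CPM (log2 -1.27, SE 0.32, adjusted p = 0.0135) and Cyp51 from 103, 82.1 and 94.6 to 28.5, 52.4 and 54.5 CPM (log2 -1.04, SE 0.26, adjusted p = 0.0116). Hsd17b7 fell from 17.1, 17.8 and 22.1 to 6.68, 11.4 and 13.9 CPM (log2 -0.83, SE 0.28, adjusted p = 0.048). In knockout cells Lss, Cyp51 and Hsd17b7 changed by 0.00, -0.07 and 0.01 on the log2 scale (adjusted p = 0.998, 0.907 and 0.99), and for each of them the ages overlapped. Lss stood there at 34.9, 35.6 and 34.5 CPM at 4 and 30.2, 44.7 and 30.3 CPM at 12 weeks. Ebp rose in wild-type cells from 189, 187 and 204 to 354, 307 and 261 CPM (log2 0.67, SE 0.22, adjusted p = 0.0491), and in knockout cells it stood at 190.1, 162 and 189 CPM at 4 and 314, 237 and 274 CPM at 12 weeks (log2 0.61, SE 0.22, adjusted p = 0.101), again without overlap.

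Among the regulators, Insig1 fell in wild-type cells from 58.1, 76.6 and 81.5 to 21.8, 22.3 and 26.9 CPM (log2 -1.61, SE 0.28, adjusted p = 0.00368), whereas knockout cells had 89.4, 61.2 and 53.4 CPM at 4 weeks and overlapping levels at 12 weeks (log2 -0.33, SE 0.27, adjusted p = 0.501). Srebf2 fell in both genotypes, from 25.8, 16.3 and 23.5 to 14.1, 11.1 and 12.2 CPM in wild-type (log2 -0.81, SE 0.26, adjusted p = 0.0379) and from 15.6, 19.5 and 21.5 to 10.4, 11.6 and 8.25 CPM in knockout cells (log2 -0.90, SE 0.26, adjusted p = 0.0435). The knockout call was lost with RLE scaling (adjusted p = 0.0529). Srebf1 stood at 18.2, 16.9 and 15 CPM at 4 and 13.5, 11.5 and 12.8 CPM at 12 weeks in wild-type cells, and at 11.8, 16.8 and 14.7 CPM and 10.2, 10.1 and 6.30 CPM in knockout cells. It was lower in every 12-week library but did not pass (adjusted p = 0.336 and 0.129). Scap rose in wild-type cells from 5.71, 5.59 and 6.59 to 25.4, 7.89 and 8.94 CPM (log2 1.24, SE 0.40, adjusted p = 0.0402), with replicate 1 far above the others. Without that replicate its change was 0.50 (SE 0.31, adjusted p = 0.285). It stood at 5.50, 8.06 and 8.97 CPM in 4-week and 10.7, 6.05 and 6.59 CPM in 12-week knockout cells. Insig2 stood at 27.4, 31.1 and 31.7 CPM in 4-week wild-type, 27.3, 31.3 and 31.3 CPM in 4-week knockout and 33.1, 31.2 and 44.7 CPM in 12-week knockout CD11b-low cells, and its changes with age, 0.28 in wild-type and 0.28 in knockout cells, did not pass. Stard4 stood at 17.5, 15.4 and 19.8 CPM, 16.9, 12.1 and 17.3 CPM and 14.0, 14.8 and 14.5 CPM in the same 3 groups, and its changes of -0.34 and -0.10 did not pass either.

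Scd1 was the fatty acid enzyme that rose with age. It went from 1.55, 3.44 and 2.94 to 21.6, 14.9 and 17.1 CPM in knockout cells (log2 2.76, SE 0.34, adjusted p = 1.72e-04, 6.75-fold) and from 1.64, 3.50 and 1.81 to 8.97, 7.0 and 7.03 CPM in wild-type cells (log2 1.73, SE 0.34, adjusted p = 0.00458, 3.32-fold), without overlap in either. The genotypes' changes were not shown to differ (interaction 1.02, SE 0.47, adjusted p = 0.576). Acly fell in wild-type cells from 239, 212 and 345 to 89.7, 60.5 and 101 CPM (log2 -1.67, SE 0.36, adjusted p = 0.00656), and knockout cells had 235, 249.7 and 278 CPM at 4 weeks and 71.3, 239 and 193 CPM at 12 weeks (log2 -0.60, SE 0.35, adjusted p = 0.309). Elovl6 was lower at 12 weeks in knockout cells, 15.5, 13.1 and 11.5 against 5.61, 5.34 and 9.75 CPM, and just missed the threshold (log2 -0.95, SE 0.29, adjusted p = 0.0548).

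By ranges, 11 of 31 members were lower in all 12-week than in all 4-week wild-type libraries (against 18.7% of all genes) and 6 higher (against 15.6%), and in knockout cells 5 were lower (against 19.6%) and 10 higher (against 19.0%), 9 of the 10 in the sterol arm. Nsdhl was higher at 12 weeks in all knockout libraries and lower in all wild-type libraries, with changes of 0.33 (SE 0.31, adjusted p = 0.558) and -0.47 (SE 0.32, adjusted p = 0.324) and an interaction of 0.81 (SE 0.45, adjusted p = 0.642). The wild-type value rested on 12-week replicate 1, at 24.7 CPM: without it the change was -0.11 and the interaction 0.45. Without wild-type replicate 1, 3 members were higher with age in wild-type cells (Mvd, Tm7sf2 and Scd1, against 9.19% of all genes) and 8 lower (against 9.22%): Hmgcs1, Sqle, Lss, Cyp51, Insig1, Srebf2, Fasn and Acly. The medians were then -0.17 in the sterol arm, -0.45 in the fatty acid arm and -0.51 in the regulators. Hmgcs1 changed by -1.68, Sqle by -1.25, Lss by -0.92, Cyp51 by -0.80, Insig1 by -1.55 and Acly by -1.72, while Idi1, Hsd17b7 and Ebp changed by -1.20, -0.59 and 0.56 and did not pass (adjusted p = 0.0761, 0.117 and 0.075). Acat2 and Acaca changed sign, from -0.20 and 0.46 to 0.17 and -0.03. In wild-type cells Hmgcs1, Sqle, Cyp51, Insig1, Scd1 and Acly passed in each of the 6 fits that left out 1 library. The count was 7 without 4-week wild-type replicate 1 and 6 without 4-week wild-type replicate 3. The shares of all genes called in those fits are not given here. Ebp, Idi1 and Hsd17b7 were lost in 5 of the 6 fits, and Scap and Srebf2 in 4. In knockout cells Scd1 passed in all 6 such fits and Srebf2 in none. The cell cycle genes summed to 516 to 662 CPM in 4-week and 342 to 560 CPM in 12-week CD11b-low libraries. The erythroid genes went from 1812 to 8324 CPM at 4 weeks to 494 to 1356 CPM at 12 weeks in wild-type libraries, and the lung epithelium genes from 38.5 to 73.4 CPM to 64.3 to 130 CPM. In knockout libraries the T and NK cell genes went from 1.5 to 3.42 CPM to 38.7 to 113 CPM, the neutrophil genes from 11 to 11.7 CPM to 36.5 to 128 CPM and the monocyte-derived macrophage genes from 10.3 to 15.3 CPM to 21.2 to 52.7 CPM. In wild-type libraries the neutrophil genes went from 12.1 to 17.5 CPM to 23.4 to 54.7 CPM. Most of the neutrophil sum was S100a8 at both ages and in both genotypes. The part of these marker sums in the differences was not tested.

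**Figure D4:**
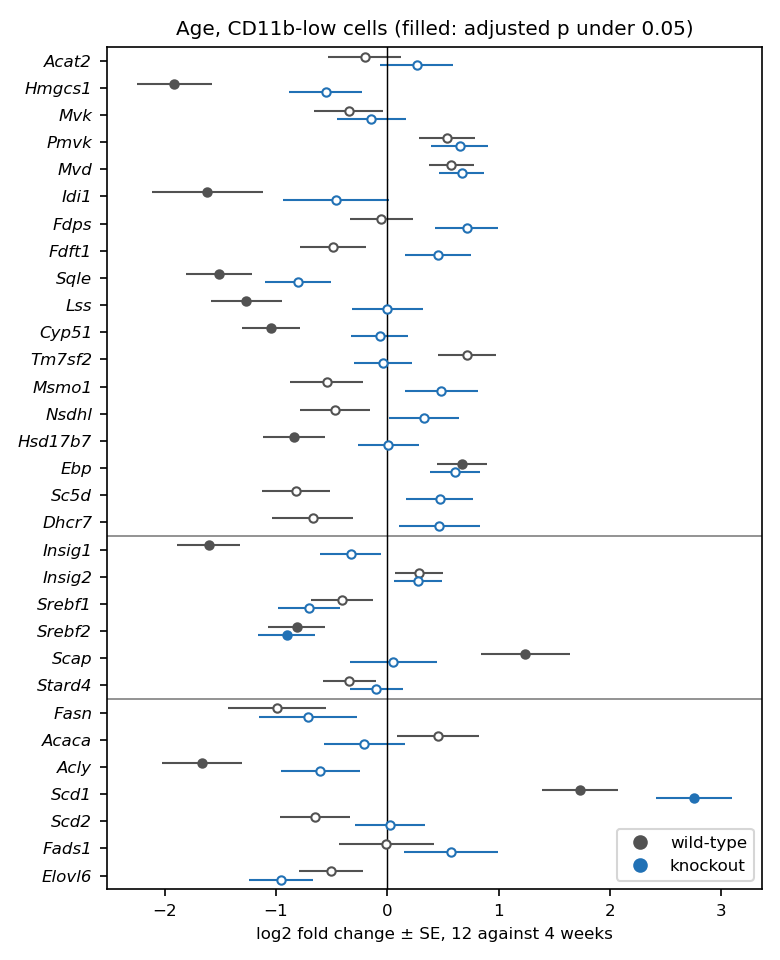
Log2 fold change from 4 to 12 weeks (horizontal axis, point ± SE) of the 31 tested genes (vertical axis, by role) in wild-type (grey) and knockout (blue) CD11b-low cells; filled points have an adjusted p under 0.05. The grey points of Hmgcs1, Sqle, Lss, Cyp51 and Insig1 lie left of the blue ones, while those of Srebf2, Pmvk and Mvd lie beside them.

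The arms were set side by side library by library, as the median over an arm's genes of log2 CPM minus each gene's mean over the 15 libraries; no test was made of these medians. In CD11b-high libraries the sterol arm stood at 0.59, 0.52 and 0.38 and the fatty acid arm at -0.05, 0.31 and 0.45. In 12-week CD11b-low knockout libraries the values were 0.21, 0.04 and 0.12 for sterol and 0.21, -0.24 and -0.45 for fatty acid genes. The sterol arm minus the fatty acid arm was 0.64, 0.21 and -0.07 in CD11b-high and 0.0055, 0.28 and 0.57 in CD11b-low knockout libraries. It was thus higher in CD11b-high cells for replicate 1 and lower for replicates 2 and 3. In 12-week wild-type libraries the arms stood at -1.55, -0.21 and -0.26 for sterol and 0.16, -0.59 and -0.57 for fatty acid genes. Wild-type replicate 1 was thus the lowest library of all for the sterol arm and the highest of its group for the fatty acid arm, and the arms parted by -1.71 there, against 0.38 and 0.31 in the other 2 libraries of its group. At 4 weeks the sterol arm stood at -0.05, -0.10 and 0.20 in wild-type and -0.18, -0.23 and -0.10 in knockout libraries, below the fatty acid arm in all 6. Every CD11b-high library lay above every other library in the sterol arm, which was not so in the fatty acid arm.

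**Figure D5:**
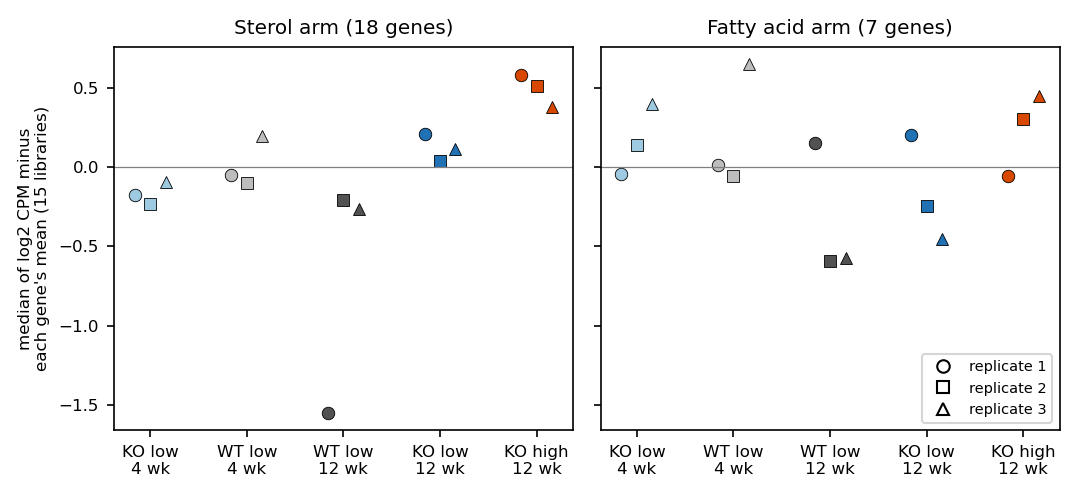
Median over the genes of an arm of log2 CPM minus each gene's mean over 15 libraries (vertical axis), for each library of the 5 groups (horizontal axis); symbols mark the replicate number. The sterol arm is highest in the 3 CD11b-high libraries (0.38 to 0.59) and lowest in wild-type 12-week replicate 1 (-1.55), and the fatty acid arm shows neither.

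Other genes of the pathway were read from 3 lists, of which no gene passed at 4 weeks, between CD11b-high and CD11b-low knockout cells or in the interaction (edgeR; at most 2 genes of a list had an unadjusted p under 0.05). Of 21 tested genes of sterol and fatty acid synthesis or SREBP processing, Erlin2, which takes part in the sterol-triggered degradation of ER proteins, was higher in 12-week knockout than in wild-type CD11b-low cells (1 of 21, against 2.60% of all genes), 50.6 ± 13.9 against 24.2 ± 8.27 CPM (log2 1.06, SE 0.28, adjusted p = 0.0454), n = 3 each. Erlin2 and Rdh11, a retinol dehydrogenase, were the 2 of 21 that were higher in CD11b-high knockout than in wild-type cells, a share near the 9.23% of all genes, and none was lower (against 5.60%); Rdh11 stood at 35.8 ± 9.27 against 17.9 ± 5.39 CPM (log2 1.0, SE 0.27, adjusted p = 0.0185). The list's median was 0.10 there, against 1.35 for the sterol arm. With age, Aacs, which activates acetoacetate for lipid synthesis, fell in knockout cells to 8.54 ± 2.47 against 33.6 ± 0.526 CPM (log2 -1.98, SE 0.34, adjusted p = 0.00255), 1 of 21 genes against 2.08% of all genes, and in wild-type cells to 12.5 ± 2.64 against 34.5 ± 7.53 CPM (log2 -1.46, SE 0.33, adjusted p = 0.00813). In wild-type cells Lpin1, Erlin2 and Mbtps1, the protease that first cuts SREBP, fell too (4 of 21, against 8.39% of all genes), Mbtps1 to 19.1 ± 5.02 against 45.2 ± 4.29 CPM (log2 -1.25, SE 0.32, adjusted p = 0.0132).

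Of 12 LXR and oxysterol genes, 2 were higher in 12-week knockout than in wild-type CD11b-low cells (against 2.60% of all genes): Soat1, which esterifies cholesterol, at 464 ± 151 against 199 ± 79.2 CPM (log2 1.22, SE 0.31, adjusted p = 0.0403), and Ch25h, which makes 25-hydroxycholesterol, at 195 ± 66.7 against 74.7 ± 20.1 CPM (log2 1.38, SE 0.31, adjusted p = 0.0213). Both were also higher in CD11b-high knockout cells than in wild-type cells (2 of 12, against 9.23%), Soat1 at 669 ± 165 against 199 ± 79.2 CPM (log2 1.75, SE 0.32, adjusted p = 0.00126) and Ch25h at 195 ± 45.8 against 74.7 ± 20.1 CPM (log2 1.39, SE 0.31, adjusted p = 0.00667), while Mylip, an LXR-induced ubiquitin ligase, was lower at 7.46 ± 0.797 against 22.2 ± 4.67 CPM (log2 -1.57, SE 0.26, adjusted p = 5.78e-04), as was Rxra, the partner of LXR (2 of 12, against 5.60%). With age 3 of 12 rose in knockout cells, against 4.81% of all genes (Nr1h3, which encodes LXR-alpha, by 1.09, Npc2 by 0.91 and Ch25h by 1.05 on the log2 scale) and Rxra fell by 0.95 (1 of 12, against 2.08%). In wild-type cells Npc2 rose and Soat1 fell (1 of 12 each, against 8.79% and 8.39%). Of the 10 isoprenoid branch genes, Fnta, a farnesyltransferase subunit, was lower in CD11b-high than in wild-type cells, 12.7 ± 0.515 against 25.0 ± 14.2 CPM (log2 -0.98, SE 0.30, adjusted p = 0.0377), 1 of 10 against 5.60% of all genes, and Fnta and Coq2 rose with age in wild-type cells, 2 of 10 against 8.79%. Without wild-type 12-week replicate 1, Erlin2, Soat1 and Ch25h no longer passed between 12-week genotypes (adjusted p = 0.107, 0.0891 and 0.0728), nor Fnta and Rxra between CD11b-high and wild-type cells (adjusted p = 0.187 and 0.116), nor the age change of Fnta (adjusted p = 0.0628). The other genes of the 3 lists that passed in a comparison with the 12-week wild-type group still did.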

How the data were processed

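RNA was measured in 15 libraries of sorted alveolar macrophages. The authors deposited raw counts per gene as 1 table with 15 count columns, made with STAR and featureCounts of Subread (versions and settings not given), per the submitters' processing notes. The sources used here do not name the genome build (not given). Of 40780 entries, 270 repeated a gene with equal counts and were dropped, leaving 40510 genes. Genes were kept with filterByExpr (minimum count 10, total 15), giving 13284. In R 4.3.3, edgeR 4.0.16 (TMM, robust quasi-likelihood fit, 1 coefficient per group, 10 residual degrees of freedom) gave 7 two-sided comparisons, adjusted by Benjamini-Hochberg over all tested genes at 0.05. Marker sums are CPM of the library total without TMM. The tests were tried on simulated data.

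Members, lists and comparisons were chosen with earlier results of these data known. Members that passed in any comparison and all regulators were given by library, the others by counts and ranges. Alternatives were RLE size factors, DESeq2 1.42.0, no filter, only the groups compared, a replicate block and leaving out each library. Values of every member without wild-type 12-week replicate 1 were added after seeing the data. CD11b-high and CD11b-low knockout samples share numbers in their titles, and the number was taken to pair them. Over genes, the deviations of same-numbered samples from their group means correlated by 0.43, 0.35 and 0.11. Each was the highest for its number between these groups. Same-numbered 12-week knockout and wild-type CD11b-low samples, which come from different mice, correlated by 0.36, 0.09 and 0.21. The correlations therefore do not establish the pairing. Promoters and gene models came from RefSeq (GRCm38.p6) and GENCODE M21. Protein sequences were not used here. Counting error was not modelled apart from the spread between libraries and weighs most on scarce members such as Idi1.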

Additional observations from a re-analysis of the deposited data

How the results depend on the processing

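For 12-week knockout against wild-type CD11b-low cells the count of members that passed, 3, became 1 with RLE size factors, 6 with DESeq2, 7 without a filter on low counts, 0 with only the 2 groups in the fit, and 0 to 3 when 1 library was left out; with a replicate block over all 15 libraries it was 4. For CD11b-high against CD11b-low knockout cells, 0 became 2 with DESeq2, 2 without a filter and 2 with a replicate block over the 6 libraries, and 0 to 1 with 1 library left out. For CD11b-high knockout cells against the wild type, 16 became 7 with only the groups compared and 13 to 16 with 1 library left out. For age in knockout cells, 2 became 5 with DESeq2, 1 without a filter, 2 with RLE size factors (Mvd in place of Srebf2), 7 with only the groups compared and 1 to 3 with 1 library left out. For age in wild-type cells, 12 became 5 with only the groups compared and 6 to 11 with 1 library left out. The 4-week genotype comparison and the interaction stayed at 0 members throughout. The cause of these changes was not tested, other than that a fit on the groups compared holds fewer libraries. Calls over all genes are set beside these counts only for RLE size factors. In the 12-week genotype comparison they went from 346 genes higher and 66 lower to 327 and 67. For age in knockout cells they went from 639 higher and 276 lower to 766 and 220. Shares without wild-type 12-week replicate 1 are given above. For the other alternatives a change particular to the members cannot be told here from a general change in calls. The replicate block over all 15 libraries moved no count of members by more than 1.5 times. Depth limits the scarce members: Idi1 had 6, 37 and 19 counts in the 12-week wild-type libraries, and Fads2 had too few counts to be tested.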
